A study of Mus musculus with 12 samples.

Results

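The cells compared here were mouse bone marrow-derived macrophages from C57BL/6J mice, 6 of the 12 libraries of the study. In 3 libraries the cells had been kept for 2 days in M-CSF at 50 ng/mL alone, and in the other 3 they had received for 2 days the same M-CSF with RANKL at 100 ng/mL and RHC80267 at 1 µM. The libraries were chosen by their treatment labels, not by any measured value. Both groups carry M-CSF, and they differ in RANKL and in RHC80267 together, so the effects of the 2 agents cannot be told apart by this comparison alone. For that reason the level in the 3 libraries with M-CSF and RANKL but no inhibitor is given beside many results. The mice were 6 to 8 weeks old at bone marrow isolation, and the marrow cells were first turned into macrophages with M-CSF. The labels give 2 days for the treatments but 4 days of RANKL in the general culture protocol, and the figure of 2 days is used here. Libraries with RANKL carry the words osteoclast and macrophage in different label fields. The labels do not say whether the 3 libraries of a group are separate cultures or animals. The p-values therefore measure only the spread between these libraries, which may be technical. A bulk library also cannot tell fewer cells of a type from less RNA per cell.

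M-CSF keeps macrophages alive, and RANKL, acting through its receptor RANK, drives them to become osteoclasts, the cells that dissolve bone with acid and proteases. The signal runs through NF-kB and AP-1 factors to the transcription factor NFATc1, which turns on the resorption and fusion genes. Macrophages in culture also keep a low, tonic interferon signal, in which interferon beta acts through a STAT and IRF9 complex on antiviral genes and is known to restrain osteoclast formation. RHC80267 is known as an inhibitor of diacylglycerol lipase, the enzyme that makes the endocannabinoid 2-arachidonoylglycerol from diacylglycerol. The question of the comparison is which genes stood above or below the M-CSF state after RANKL and this inhibitor together.

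Levels are in CPM, counts scaled to TMM-normalized library size, given as mean ± SD over 3 libraries, and changes are log2 ratios of RANKL plus RHC80267 to M-CSF ± SE. A gene is called, and said to have risen or fallen, where edgeR's quasi-likelihood test gave it an adjusted p under 0.05 (Benjamini-Hochberg, 11983 genes tested). Total expected counts were 18097537 to 18193362 per library with M-CSF and 17760844 to 17936609 with RANKL plus RHC80267. Log-scale levels correlated at 0.997 to 0.998 between libraries of a group and at 0.936 to 0.941 between groups. Of the genes tested 70.3% were called: 4310 rose (36.0%) and 4120 fell (34.4%). More than 2-fold changes were fewer, with 1025 genes higher (8.55%) and 694 lower (5.79%), and the median change over all genes was 0.01. Every count of list members below stands against these shares. TMM scaling centres the changes near 0, so it largely sets the median, and a shift of all genes together could not be seen. In 72.9% of genes the 3 libraries of one group lay entirely above or below those of the other. One library stood apart: RHC80267 replicate 1 held 21.3 CPM of Col1a1, 24.8 of Col1a2 and 6.35 of Col3a1, collagen genes of stromal cells, against at most 6.15, 5.38 and 2.14 in its 2 partners and 3.91, 4.25 and 0.62 with M-CSF. M-CSF replicate 2 was the lowest of its group for several inflammatory genes, among them Ptgs2 at 52.6 CPM against 158 and 142.

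**Figure D1:**
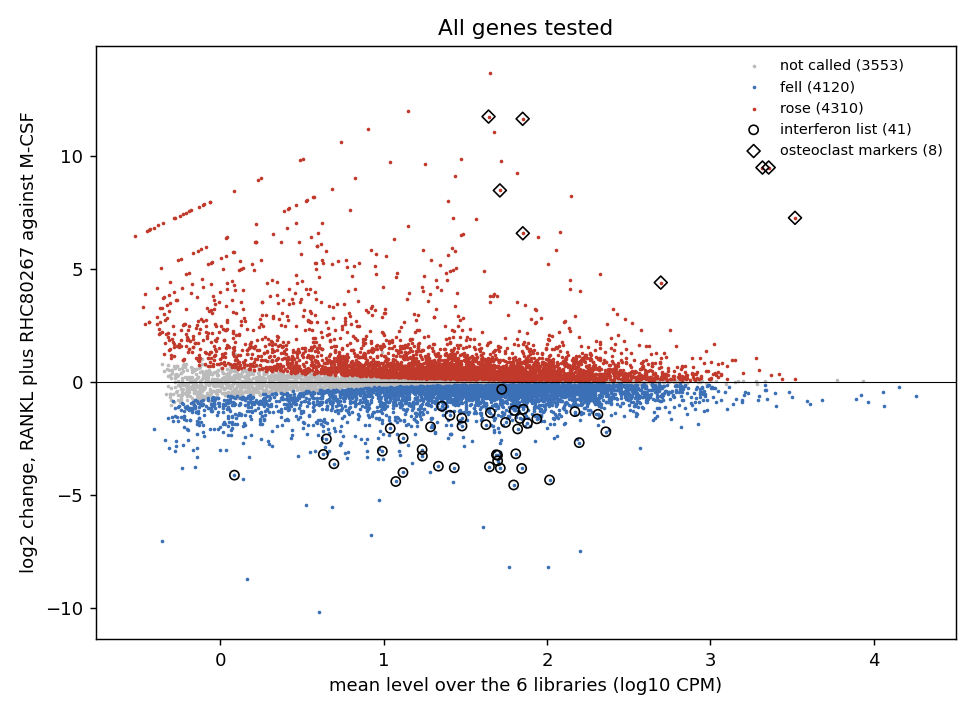
Each point is 1 of the 11983 genes tested, with its mean level over the 6 libraries on the x axis (log10 CPM) and its log2 change from M-CSF to RANKL plus RHC80267 on the y axis. Grey genes were not called, blue genes fell and red genes rose; the members of the interferon list (black rings) all lie below 0 and the osteoclast markers (black diamonds) all lie above 4. Diagonal streaks at low levels are genes with no counts in one group, whose fitted change depends on the prior count.

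Every gene tested from a written list of interferon-induced genes fell below its M-CSF level. Of 44 genes listed, 41 were in the deposited table and tested, and all 41 fell, 40 of them more than 2-fold, with a median change of -2.51. Ifit3, an antiviral protein of the IFIT family, stood at 142, 93.9 and 125 CPM with M-CSF and at 4.88, 5.93 and 4.59 with RANKL plus RHC80267. The groups lay far apart, and the lowest M-CSF library was that of replicate 2. The change was -4.55 ± 0.15 (adjusted p = 5.35e-13), the most negative of the list. With RANKL alone Ifit3 was at 75.1 ± 8.64 CPM, between the 2 groups, and RANKL plus RHC80267 differed from RANKL alone by -3.87 ± 0.16 (adjusted p = 2.15e-14). That difference, like all others between the RANKL groups below, comes from an edgeR fit of all 12 libraries, in which 49.9% of 12168 genes were called and 26.9% were called higher with RHC80267 than with RANKL alone.

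Antiviral effectors of other families were also lower. Oas3, an oligoadenylate synthetase that senses double-stranded RNA, was at 86.9, 71.7 and 90.0 CPM with M-CSF against 5.86, 6.92 and 5.74 CPM. Oasl2, a relative of that family, was at 133, 118 and 141 CPM against 8.03, 12.6 and 7.27 CPM. Ifi211, of the PYHIN family of DNA-binding proteins, was at 97.6, 79.6 and 88.7 CPM against 10.4, 10.7 and 7.65 CPM. In each of these 3 genes all M-CSF libraries exceeded all RHC80267 libraries several-fold. Their changes were -3.75 ± 0.10 for Oas3 (adjusted p = 3.45e-14), -3.82 ± 0.12 for Oasl2 (adjusted p = 1.51e-13) and -3.21 ± 0.10 for Ifi211 (adjusted p = 1.41e-13).

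The promoters of these 3 genes are shown because many promoters of the list hold a shared motif, a feature that the choice of libraries did not use. Each runs from 250 bases before to 50 bases after the gene's start in RefSeq (GRCm38.p6), 5′ to 3′ on the gene's own strand. Capitals mark matches on either strand to a pair of GAAA blocks with any 2 bases (NN) between them, the core of the interferon-stimulated response element bound by ISGF3 and IRF factors. The windows are chr5:120777610-120777909 (minus strand) for Oas3, chr1:173912997-173913296 (minus strand) for Ifi211 and chr5:114896684-114896983 (plus strand) for Oasl2.
Oas3: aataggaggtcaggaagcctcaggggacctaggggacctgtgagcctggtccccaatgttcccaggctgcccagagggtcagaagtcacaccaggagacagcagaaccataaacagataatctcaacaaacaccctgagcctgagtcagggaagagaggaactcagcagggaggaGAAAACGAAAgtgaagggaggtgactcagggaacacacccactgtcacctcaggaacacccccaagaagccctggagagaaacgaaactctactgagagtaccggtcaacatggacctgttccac
Ifi211: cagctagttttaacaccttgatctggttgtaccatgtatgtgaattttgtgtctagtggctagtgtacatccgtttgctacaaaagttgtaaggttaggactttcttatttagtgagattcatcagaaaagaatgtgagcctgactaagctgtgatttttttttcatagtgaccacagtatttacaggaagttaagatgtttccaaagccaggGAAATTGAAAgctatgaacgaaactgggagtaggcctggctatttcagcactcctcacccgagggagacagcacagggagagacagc
Oasl2: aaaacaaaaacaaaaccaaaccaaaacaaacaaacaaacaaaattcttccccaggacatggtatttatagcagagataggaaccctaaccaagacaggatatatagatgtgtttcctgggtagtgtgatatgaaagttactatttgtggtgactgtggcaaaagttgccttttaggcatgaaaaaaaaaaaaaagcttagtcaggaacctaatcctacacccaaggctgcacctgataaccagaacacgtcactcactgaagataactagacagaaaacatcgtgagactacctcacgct
The Oas3 match began 75 bases before the start and the Ifi211 match 37 bases before it, while the Oasl2 window held no match to these letters. Of the 41 interferon genes tested, 32 had RefSeq entries, with 38 windows in all, and 22 windows (57.9%) of 21 genes held the motif. Among all 32851 promoter windows of this length 3.44% held it. In the class I antigen presentation list 5 of 19 windows held it, in the inflammatory list 1 of 25 and in the oxidative phosphorylation list 2 of 36. The list was made of interferon genes, so its share is a trait of the list and no result of the treatment. A match is a string of letters and not a measured binding site.

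The transcription factors of the interferon pathway were lower too. Irf7, which amplifies type I interferon production, was at 126, 100 and 122 CPM with M-CSF and at 12.6, 15.1 and 11 with RANKL plus RHC80267, a change of -3.17 ± 0.10 (adjusted p = 1.98e-13). Stat2 and Irf9 changed by -1.62 and -1.25. Slfn5, of the Schlafen family, was at 377 ± 35.6 CPM with M-CSF, 390 ± 35.9 with RANKL alone and 82.3 ± 7.20 with RANKL plus RHC80267. The cytosolic RNA sensors Ddx58 and Ifih1 changed by -1.20 and -1.35, and Dhx58 by -1.94.

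Guanylate-binding proteins and chemokines of the list were lower as well. Cxcl10, a chemokine that recruits T cells, was at 40.3 ± 4.19 CPM with M-CSF and 3.06 ± 0.624 with RANKL plus RHC80267, and Isg15, a ubiquitin-like modifier, at 31.4 ± 4.21 against 3.24 ± 0.176. Gbp2 and Gbp5 changed by -3.23 and -2.48 and the immunity-related GTPase Iigp1 by -3.99. Gbp7 was the smallest change, at 65.4, 54.2 and 56.6 CPM against 39.8, 53.0 and 48.4, or -0.32 ± 0.09 (adjusted p = 0.00392). Its groups lay close to each other but did not overlap. Ifit1, Ifit2, Ifit3 and Ifit3b are close relatives, as are the Oas genes, so reads may have been divided between copies.

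**Figure D2:**
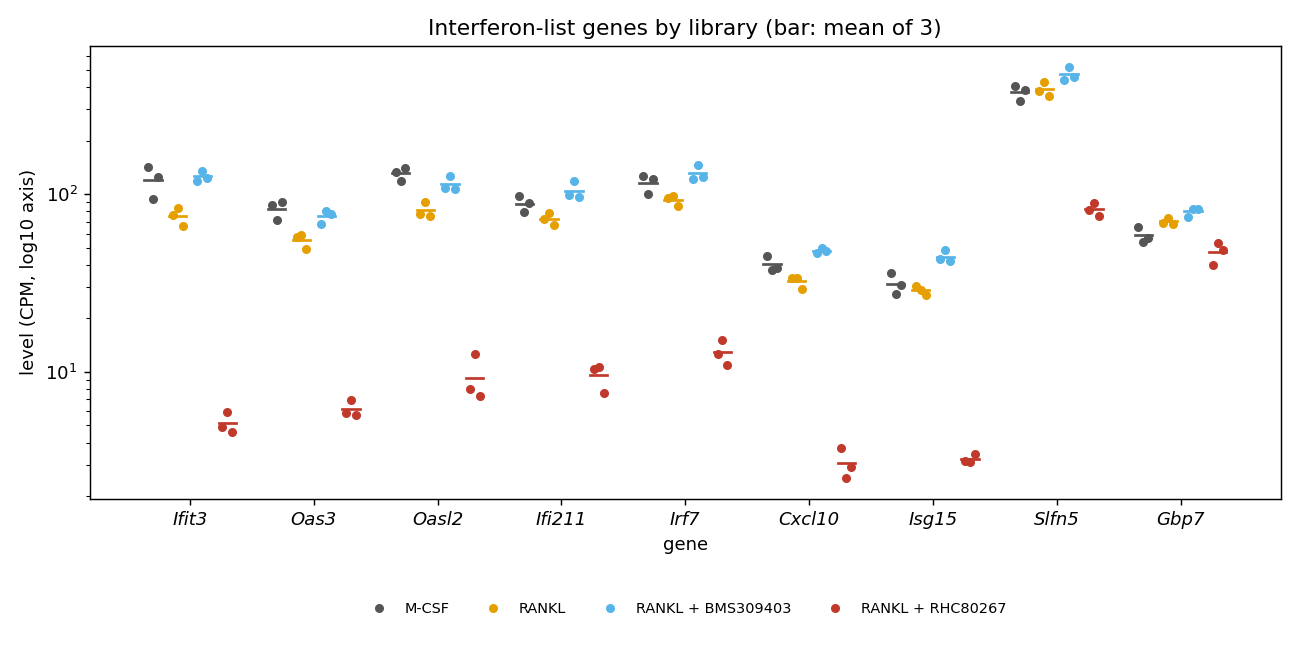
Level of 9 interferon-list genes in each library (CPM, log10 axis), with a column of points for each of the 4 culture conditions, 3 libraries each, and a bar at the mean. In all 9 genes the RANKL plus RHC80267 points lie below the M-CSF points, and for Slfn5 the RANKL-only points lie at the M-CSF level.

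Antigen presentation split by class. Of 20 class I genes, which display peptides from inside the cell, 18 fell and 1 rose (median -0.63). B2m, the light chain of class I molecules, was at 1918, 1989 and 2190 CPM with M-CSF and at 1066, 1140 and 1091 with RANKL plus RHC80267, 2 ranges that do not meet. It changed by -0.89 ± 0.05 (adjusted p = 8.60e-11), and H2-K1, a classical heavy chain, by -0.79 ± 0.04. The non-classical heavy chains H2-Q4 and H2-Q6 changed by -1.94 and -2.38. H2 genes are near-identical copies of each other, so their counts are uncertain. Tap2, a subunit of the peptide transporter, was the riser at 0.81 ± 0.05, while its partner Tap1 fell by 0.55.

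Genes of the class II pathway, which displays peptides taken up from outside, changed in both directions. Of 15 tested, 8 fell, 3 of them more than 2-fold, 3 rose and 4 were not called (median -0.33, from -1.66 to 2.63). The 15 include the co-stimulatory genes Cd86 and Cd40, which are not part of that pathway and are both among those that fell. H2-Ab1, a class II beta chain, was at 140, 129 and 114 CPM with M-CSF and at 131, 142 and 141 with RANKL plus RHC80267, and these values overlap (0.11 ± 0.06, adjusted p = 0.114, but 0.00583 without M-CSF replicate 1). H2-Aa, the alpha chain, had 203 ± 32.2 CPM with M-CSF and 191 ± 2.37 with the inhibitor, again without a call (adjusted p = 0.346, but 0.00304 without M-CSF replicate 3). With RANKL alone both were more abundant, at 383 ± 12 and 615 ± 11.8 CPM, and RANKL plus RHC80267 differed from RANKL alone by -1.47 ± 0.05 and -1.68 ± 0.07 (adjusted p = 3.74e-15 and 1.49e-14). Cd74, the class II chaperone, rose from 465 ± 34.1 to 561 ± 48.5 CPM (0.27 ± 0.06, adjusted p = 7.78e-04), against 1508 ± 68.9 with RANKL alone. Co-stimulatory genes went below the M-CSF level: Cd86 was at 59.2, 56.1 and 55.6 CPM against 33.7, 35.0 and 35.1, a change of -0.72 ± 0.05, and Cd40 changed by -1.52. Ifi30, a lysosomal thiol reductase, rose by 2.63 ± 0.04, and stood at 493 ± 28.4 CPM with RANKL alone against 574 ± 19.1 here.

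Genes of macrophage identity fell as a rule. Of 25 tested, 23 fell, 1 rose and 1 was not called, with a median of -0.78. Csf1r, the M-CSF receptor, was at 5159, 4881 and 4998 CPM with M-CSF and at 2777, 2753 and 2786 with RANKL plus RHC80267, a change of -0.85 ± 0.03 (adjusted p = 3.29e-12) in groups that did not overlap. RANKL alone gave nearly the same level, 2839 ± 21 CPM, and the difference between the RANKL groups was -0.03 ± 0.04 (adjusted p = 0.510). Fcgr1, the high-affinity IgG receptor, behaved otherwise. It was at 190, 183 and 191 CPM with M-CSF and 32.2, 33.9 and 36.0 with RANKL plus RHC80267, -2.46 ± 0.05 (adjusted p = 5.83e-16), and at 83.3 ± 4.48 with RANKL alone. Cd14, the co-receptor for endotoxin, changed by -2.12 ± 0.05 and Ms4a7 by -1.67 ± 0.04. Cd68, a lysosomal glycoprotein, was the riser at 0.15 ± 0.04 (adjusted p = 0.00616), with its highest M-CSF library at 1278 and its lowest RHC80267 library at 1279 CPM. Mertk, a receptor for dying cells, stood at 175 ± 10.1 and 179 ± 8.23 CPM (adjusted p = 0.504), against 117 ± 11.7 with RANKL alone.

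Uptake receptors mostly fell as well: 15 of 21 scavenger and C-type lectin genes fell and 5 rose (median -0.71). Stab1 and Cd36, scavenger receptors, were among the most abundant of all genes lowered more than 2-fold, at 3414 ± 22.9 against 1631 ± 75.6 CPM and 1307 ± 58.1 against 367 ± 19.4 CPM. With them in that group were the lysosomal protease Ctsb (15498 ± 596 against 7535 ± 261 CPM), Cybb, the membrane subunit of the phagocyte oxidase (1779 ± 90.2 against 769 ± 12.6), Fcgr3, a low-affinity IgG receptor (1336 ± 40.3 against 576 ± 21.8), and Mrc1, the mannose receptor (1298 ± 29.5 against 534 ± 41.3). Marco, a receptor for bacteria, changed by -0.38 ± 0.11 (adjusted p = 0.00577), with libraries at 65.4, 47.2 and 60.5 against 52.4, 38.8 and 42.1 CPM that overlap. In DESeq2 Marco was not called (adjusted p = 0.0686). It was at 6.77 ± 0.464 CPM with RANKL alone.

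Inflammatory genes held 7 of the 8 most negative changes named by rule. Of 28 cytokine, chemokine and related genes tested, 22 fell, 19 of them more than 2-fold, and 5 rose (median -1.85). Il1b, interleukin-1 beta, was at 196, 169 and 247 CPM with M-CSF and at 1.25, 0.604 and 0.219 with RANKL plus RHC80267, or -8.19 ± 0.22 (adjusted p = 4.34e-14). The M-CSF libraries lay far above the others, and without RHC80267 replicate 1, the highest of its group, the change was -8.93. Saa3, an acute-phase protein, was at 425, 212 and 321 CPM against 4.29, 0.769 and 0.383 (-7.45 ± 0.35, or -9.10 without RHC80267 replicate 1), with replicate 1 the highest in each group. Ptgs2, the inducible cyclooxygenase, changed by -8.17 ± 0.58, and the neutrophil-attracting chemokines Cxcl1 and Cxcl2 by -6.77 and -6.39. Csf3, the granulocyte growth factor, had 425 counts over the M-CSF libraries and none over the RHC80267 libraries, at least 147-fold lower. RANKL alone also left these genes low, at 2.39 ± 0.447 CPM for Il1b, 1.14 ± 0.129 for Saa3 and 0.463 ± 0.246 for Ptgs2.

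Tnf and Nos2 separated the RANKL groups as well. Tnf was at 24.5 ± 2.77 CPM with M-CSF, 8.60 ± 0.593 with RANKL and 3.60 ± 0.451 with RANKL plus RHC80267, and Nos2, the inducible nitric oxide synthase, at 9.47 ± 0.0649, 0.948 ± 0.185 and 0.200 ± 0.0827. Both were lower with RHC80267 than with RANKL alone, by 1.25 and 2.20 on the log2 scale (adjusted p = 2.39e-07 and 1.13e-04). The 5 risers were Nfkbia, Tnfaip3, Ccl6, Ccl9 and Il1rn. Nfkbia and Tnfaip3, which hold NF-kB in check, rose by 1.17 ± 0.04 and 1.03, and the chemokine Ccl9 by 1.06. Il1rn, the interleukin-1 receptor antagonist, rose by only 0.72 ± 0.07 to 23.8 ± 1.32 CPM, against 69.6 ± 3.08 with RANKL alone.

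Osteoclast genes rose, and several had the highest ratios of the comparison. Of 24 resorption genes, 21 rose, 17 of them more than 2-fold, and 3 fell (median 2.29). Acp5, the tartrate-resistant acid phosphatase (chromosome 9, 22126727 to 22135746 on GRCm38), was at 5.42, 5.64 and 6.40 CPM with M-CSF and at 4211, 4365 and 3929 with RANKL plus RHC80267. Ctsk, the collagen-cleaving cathepsin K (chromosome 3, 95499210 to 95509387), was at 4.18, 8.46 and 6.40 against 4281, 5033 and 4341 CPM. For both genes the 2 groups were far apart. The changes were 9.48 ± 0.07 for Acp5 (adjusted p = 1.46e-20) and 9.48 ± 0.12 for Ctsk (adjusted p = 7.68e-18). Mmp9, a gelatinase, reached the highest level of any gene raised more than 2-fold, at 6562 ± 503 CPM from 42.8 ± 12.6.

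Several osteoclast genes came from almost no counts. Calcr, the receptor for calcitonin, had 1 count over the M-CSF libraries and 4827 over the RHC80267 libraries, a ratio of 4665 (95% counting interval 837 to 184304). Oscar, a co-stimulatory receptor for collagen, had 2 and 7805, a ratio of 3772 (1044 to 31150). These intervals cover counting error only. Calcr was also more abundant than with RANKL alone, at 87.9 ± 9.48 against 21.9 ± 1.25 CPM (2.01 ± 0.07, adjusted p = 3.74e-15). Rufy4, which takes part in autophagy, had no counts with M-CSF and 90.3 ± 2.46 CPM here, at least 1597-fold higher. Mt3, a metallothionein, was at least 500-fold higher, Msln, a cell surface glycoprotein, at least 285-fold and Kank1, an adhesion adaptor, at least 193-fold. Mst1r, the receptor RON, had a ratio of 2521 (698 to 20823) and Siglec15, a sialic acid receptor of the fusion list, of 1060 (362 to 5142).

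Genes of the proton pump and of acid supply mostly rose. The V-ATPase pumps protons across the resorbing membrane, and of 18 listed subunit genes 17 rose and 1 fell (median 0.98). Atp6v0d2, the d2 subunit of osteoclasts, was at 43.2, 47.0 and 44.9 CPM with M-CSF and 917, 1021 and 914 with RANKL plus RHC80267 (4.40 ± 0.05, adjusted p = 7.68e-18). Atp6v1b2 rose by 1.70, Atp6v1d by 1.68 and Tcirg1, the a3 subunit, by 1.07, whereas Atp6v0a1, the a1 subunit, fell by 0.73. Car2, the carbonic anhydrase that supplies protons, rose from 0.208 ± 0.229 to 131 ± 3.99 CPM (9.26, or 10.49 without M-CSF replicate 3), and the chloride channel gene Clcn7 by 1.00. The 3 resorption genes that fell were Ctsl, Rab3d and Adam8, by 0.51, 0.52 and 0.58. The AP-1 site TGANTCA, searched like the other motifs on both strands, was in 3 of 33 promoter windows of the resorption list, 9.09%, against 7.81% of all windows.

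Fusion genes were split. Of 18 tested, 10 rose, 9 of them more than 2-fold, 7 fell and 1 was not called (median 0.72). Dcstamp and Ocstamp, membrane proteins needed for fusion, rose by 6.58 ± 0.08 and 8.47 ± 0.14 (9.19 for Ocstamp without M-CSF replicate 2), to 141 ± 5.51 and 103 ± 6.51 CPM. Itgb3, the beta 3 integrin chain of the osteoclast's vitronectin receptor, was at 21.4, 18.9 and 15.1 CPM against 290, 332 and 282 (4.03 ± 0.09, adjusted p = 2.96e-15). The tetraspanin Cd81 and the scavenger receptor Cd36, also in this list, fell by 1.04 and 1.83. Among 25 adhesion and podosome genes 12 rose and 10 fell, with the collagen receptor chain Itga2 at 5.92 and cortactin, Cttn, at 4.01, but Itgal, the LFA-1 chain of leukocytes, at -1.47 and Itga6 at -1.08.

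**Figure D3:**
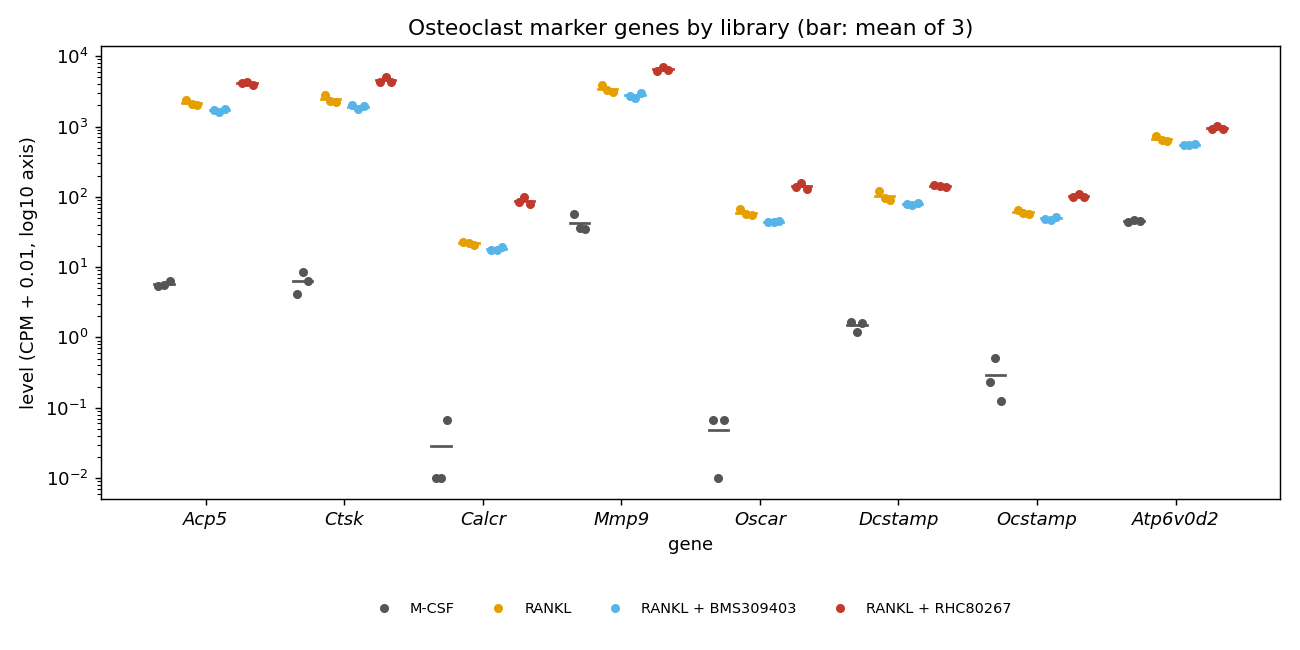
Level of 8 osteoclast marker genes in each library (CPM plus 0.01, log10 axis), drawn as for the interferon genes. The M-CSF points lie below 60 CPM for every gene, and the RANKL plus RHC80267 points lie above both the M-CSF and the RANKL-only points.

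Among the transcription factors of osteoclast formation 14 of 25 rose, 6 fell and 5 were not called (median 0.26). Nfatc1 was at 68.3, 65.8 and 66.7 CPM with M-CSF and at 402, 406 and 390 with RANKL plus RHC80267 (2.58 ± 0.04, adjusted p = 5.26e-17), and at 242 ± 26.7 with RANKL alone. The AP-1 family members Jdp2 and Fosl2 rose by 4.77 ± 0.07 and 3.02 ± 0.05, and Ppargc1b, a coactivator of mitochondrial genes, by 3.81 ± 0.08. Fos rose by 1.68. Mitf, Tfeb and Jun were not called, though Jun was without M-CSF replicate 3 (-0.15, adjusted p = 0.0170). Rela and Nfkb1 each fell by 0.33 while Nfkb2, of the alternative NF-kB pathway, rose by 0.96.

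Repressors of osteoclast formation moved the other way: 10 of 12 fell, 1 rose and 1 was not called (median -0.73). Irf8 was at 234, 238 and 228 CPM with M-CSF and at 133, 142 and 143 with RANKL plus RHC80267 (-0.74 ± 0.04, adjusted p = 1.07e-10), against 130 ± 6.47 with RANKL alone. The RANKL groups differed in Irf8 by 0.10 ± 0.04, without a call (adjusted p = 0.0537, but 0.0237 without RANKL replicate 3 and 0.0210 without RHC80267 replicate 1). Bcl6 fell from 58.2 ± 2.69 to 26.1 ± 0.276 CPM and Rbpj, the nuclear partner of Notch, from 356 ± 25.7 to 181 ± 10.3, with 45.5 ± 1.58 and 313 ± 2.33 under RANKL alone. For these 2 genes the difference between the RANKL groups was -0.79 and -0.78 (adjusted p = 2.05e-10 and 2.77e-11). The helix-loop-helix inhibitors Id1, Id2 and Id3 changed by -1.62, -1.28 and -1.29, and Bach2 was the riser at 0.65.

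Receptor and kinase genes upstream of NFATc1 were divided. Of 26 genes of RANK and ITAM signalling 11 rose, 13 fell and 2 were not called (median -0.10). Tnfrsf11a, which encodes RANK, rose from 98.9 ± 1.62 to 168 ± 4.06 CPM (0.77 ± 0.04, adjusted p = 3.90e-11), as against 173 ± 12.4 with RANKL alone, from which it was not called different (adjusted p = 0.479). Traf1 rose by 3.82 and Traf6, the main adaptor of RANK, by 0.41. Trem2 and its partner chain Tyrobp fell by 1.16 and 0.29, and Fcer1g, the other ITAM adaptor, by 0.86.

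**Figure D4:**
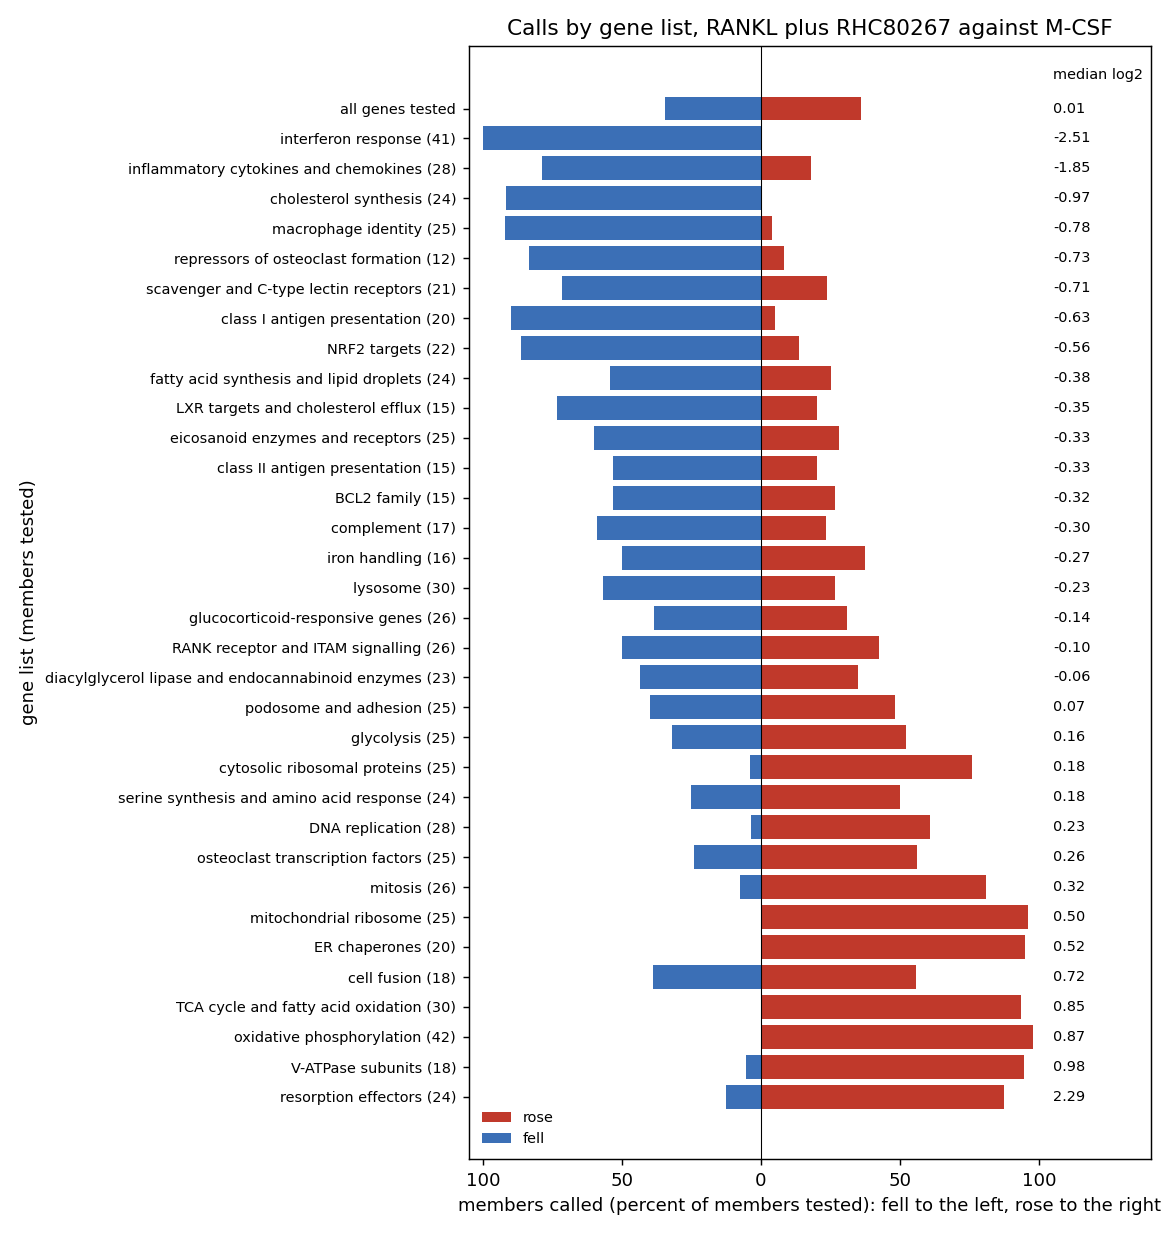
For each gene list, the share of its tested members that rose (red, to the right) and fell (blue, to the left) in RANKL plus RHC80267 against M-CSF, in percent, with the median log2 change printed beside it; the first row gives all 11983 genes tested, 36.0% and 34.4%. The interferon list has 41 of 41 members on the left and the oxidative phosphorylation list 41 of 42 on the right.

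Mitochondrial genes rose almost throughout. Of 42 nuclear genes of the respiratory chain and ATP synthase 41 rose and none fell (median 0.87). Cyc1, cytochrome c1, was at 37.5, 39.7 and 40.7 CPM with M-CSF and at 171, 167 and 165 with RANKL plus RHC80267 (2.09 ± 0.04, adjusted p = 1.63e-15), and at 116 ± 7.49 with RANKL alone. Atp5b, the catalytic beta chain, was at 523 ± 5.52 against 1374 ± 3.06 CPM (1.39 ± 0.03). Ndufs8, of complex I, was the exception at 0.11 (adjusted p = 0.198, but 0.23 and 0.00252 without M-CSF replicate 3). Of 30 genes of the citric acid cycle and fatty acid oxidation 28 rose and none fell (median 0.85), led by Idh3a, the isocitrate dehydrogenase alpha chain, at 2.24 ± 0.05 and Mdh2 at 1.97. Of 25 mitochondrial ribosomal proteins 24 rose and none fell (median 0.50). For these 3 lists the medians against RANKL alone, in the fit of 12 libraries, were 0.22, 0.27 and 0.11, with 40, 22 and 11 members called higher.

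Folding, translation and growth genes had smaller median shifts than the respiratory chain and citric acid cycle lists. Of 20 chaperones of the endoplasmic reticulum 19 rose and 1 was not called (median 0.52), with Calr, calreticulin, at 845 ± 16.4 against 1516 ± 22.1 CPM and Hspa5 at 0.81. Of 25 cytosolic ribosomal proteins 19 rose and 1 fell, all by 0.50 or less (median 0.18). Of 26 mitosis genes 21 rose and 2 fell (median 0.32), with the checkpoint kinase Bub1b at 1.06 ± 0.05, while Mki67, a proliferation marker, was at 137 CPM in both groups and the centromere histone Cenpa fell by 0.87. Of 28 DNA replication genes 17 rose and 1, Pcna, fell (median 0.23). In the serine synthesis and amino acid list 12 of 24 rose and 6 fell, with Asns, asparagine synthetase, at 1.55 ± 0.08.

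Transcripts of sterol synthesis genes went below their M-CSF level. Of 24 genes tested 22 fell, 11 of them more than 2-fold, none rose and 2 were not called (median -0.97). Insig1, the anchor that holds the sterol sensor in the endoplasmic reticulum, was at 158, 168 and 165 CPM with M-CSF and at 53.9, 50.9 and 58.8 with RANKL plus RHC80267 (-1.59 ± 0.05, adjusted p = 1.94e-13), in groups that lay far apart. With RANKL alone it was at 85.8 ± 0.806 CPM, between the 2 groups, and the RANKL groups differed by -0.65 (adjusted p = 3.94e-10). The sterol regulatory element TCACNCCAC was in 1 of 20 windows of this list, against 1.24% of all windows.

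Sterol efflux and fatty acid genes were mixed. Of 15 LXR-linked genes 11 fell and 3 rose (median -0.35). Nr1h3, which encodes LXR alpha, rose by 2.03 while the transporter Abca1 fell by 0.82 and Mylip, a ubiquitin ligase, by 1.51. Of 24 genes of fatty acid synthesis and storage 13 fell and 6 rose (median -0.38). The desaturase Fads2 fell by 2.34 and the synthase Fasn by 0.87, whereas the droplet proteins Plin2 and Plin3 rose by 0.40 and 0.81.

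Antioxidant genes were lower: of 22 targets of NRF2, the regulator of the oxidative stress response, 19 fell and 3 rose (median -0.56). Gclc, the catalytic subunit for glutathione synthesis, was at 153, 134 and 163 CPM with M-CSF and at 65.9, 59.7 and 63.0 with RANKL plus RHC80267 (-1.26 ± 0.06, adjusted p = 4.69e-11), against 55.0 ± 4.11 with RANKL alone. Hmox1, heme oxygenase, fell from 734 ± 26.3 to 550 ± 21.9 CPM, but was higher than the 403 ± 7.72 of RANKL alone (0.45 ± 0.04, adjusted p = 3.47e-09). The antioxidant response element TGACNNNGC was in 8 of 25 windows of this list, against 12.4% of all windows. Among 16 iron genes 6 rose and 8 fell. Slc40a1, the iron exporter ferroportin, fell by 1.31 ± 0.04 and the ferritin Fth1 by 0.76 ± 0.04, while Tfrc, the transferrin receptor, rose by 0.84. Steap4, a metalloreductase, rose by 9.09 ± 0.18, or by 9.77 without M-CSF replicate 3.

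Genes of diacylglycerol lipase and its pathway changed in both directions. Of 23 genes of diacylglycerol and endocannabinoid metabolism 8 rose and 10 fell (median -0.06), beside 36.0% and 34.4% of all genes tested. Dagla, diacylglycerol lipase alpha, was at 4.69, 5.13 and 5.55 CPM with M-CSF and at 6.67, 6.32 and 6.83 with RANKL plus RHC80267, close but not overlapping (0.37 ± 0.12, adjusted p = 0.0143). The call was lost in DESeq2 (adjusted p = 0.0651) and without M-CSF replicate 1 (adjusted p = 0.0540). Dagla was at 10.6 ± 1.00 with RANKL alone. Daglb, the beta enzyme and the more abundant of the pair, was at 93.6, 103 and 98.8 against 71.8, 74.5 and 74.8 CPM (-0.42 ± 0.04, adjusted p = 4.46e-07). On the authors' TPM scale, which allows for transcript length, Daglb was at 38.2 ± 1.21 and Dagla at 1.85 ± 0.105 TPM with RANKL plus RHC80267. Abhd12, a hydrolase of 2-arachidonoylglycerol and lysophosphatidylserine, fell from 458 ± 18.3 to 235 ± 1.36 CPM. Napepld, which makes N-acylethanolamines, rose by 1.79 ± 0.14, and Cnr2, the cannabinoid receptor of immune cells, fell by 0.50.

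Eicosanoid genes leaned downward, with 15 of 25 fallen and 7 risen (median -0.33). Beside Ptgs2, the constitutive cyclooxygenase Ptgs1 fell by 0.73, Hpgds, which makes prostaglandin D2, by 1.13 ± 0.04, and the prostaglandin E2 receptor Ptger4 by 1.16. Ephx2, soluble epoxide hydrolase, had 1 count with M-CSF and 21.8 ± 3.01 CPM here, a ratio of 1156 (95% counting interval 207 to 45694). Of 8 fatty acid binding protein genes in the table, 4 passed the filter on low counts. Fabp4 was at 11, 13.7 and 13 CPM with M-CSF and at 29.5, 39.2 and 36.8 with RANKL plus RHC80267 (1.48 ± 0.10, adjusted p = 3.01e-09), much as with RANKL alone (36.8 ± 6.84). Fabp5 was at 399, 490 and 446 against 493, 486 and 478 CPM, which overlap, and was not called (0.13 ± 0.06, adjusted p = 0.0529). DESeq2 and limma-voom called it (adjusted p = 0.0416 and 0.0434), as did the edgeR test with the replicate number as a block (adjusted p = 0.0347) and without M-CSF replicate 2 (0.20, adjusted p = 0.00136). With RANKL alone it stood at 815 ± 88.6. Fabp7 rose by 1.08 and Fabp3 fell by 1.53.

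A few genes known to respond to glucocorticoids rose past both other states, though the list as a whole did not. Of 26 listed genes 8 rose, 10 fell and 8 were not called (median -0.14). Fkbp5, a co-chaperone of steroid receptors, was at 14.9, 14.8 and 13.2 CPM with M-CSF and at 65.3, 62.8 and 70.5 with RANKL plus RHC80267 (2.21 ± 0.06, adjusted p = 9.40e-14). RANKL alone left it at 12.9 ± 1.34 CPM, and the RANKL groups differed by 2.37 ± 0.07 (adjusted p = 8.48e-16). Tsc22d3, the leucine zipper protein GILZ, was at 91.9, 101 and 106 against 134, 138 and 142 CPM (0.47 ± 0.05, adjusted p = 3.90e-07). Cd55, which protects cells from complement, was at 2.02 ± 0.261 CPM with M-CSF, 7.28 ± 0.721 with RANKL alone and 46.6 ± 3.99 with RANKL plus RHC80267 (4.53 ± 0.11 against M-CSF). Dusp1, Zfp36 and Cd163 of the same list fell by 1.00, 0.79 and 1.12, and Sgk1 was at 94.9 and 94.8 CPM. The glucocorticoid response palindrome, GNACA and TGTNC with any 3 bases (NNN) between them, was in 2 of 31 promoter windows of this list, against 0.475% of all windows.

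For some genes the M-CSF level lay between the 2 RANKL conditions, with no overlap among the 9 libraries. They were chosen for that order, so their levels are a description. On one side, above M-CSF with RHC80267 and below it with RANKL alone, the 6 with the largest smaller step were Per1, Trpv4, Tsc22d3, Nynrin, Slc15a2 and Ltbp3. Per1, a clock gene, was at 24.1 ± 1.33 CPM with M-CSF, 35.1 ± 2.25 with RANKL plus RHC80267 and 15.0 ± 0.163 with RANKL alone. Trpv4, a calcium channel, was at 37.5 ± 2.96, 55.2 ± 0.901 and 26.7 ± 1.81 CPM in the same order. Ltbp3, which binds latent TGF-beta, was at 30.7 ± 0.827, 51.4 ± 2.34 and 22.8 ± 1.48 CPM. On the other side, below M-CSF with RHC80267 and above it with RANKL alone, stood Kdr, Ccl2, Slfn1, Klk1b11 and Cd86. Kdr, a receptor for VEGF, was at 5.01 ± 0.667 CPM with M-CSF, 2.35 ± 0.342 with RANKL plus RHC80267 and 9.10 ± 1.10 with RANKL alone. Ccl2, a monocyte chemokine, was at 7.66 ± 1.68, 3.52 ± 1.46 and 13.5 ± 1.74 CPM, and Cd86 at 57.0 ± 1.94, 34.6 ± 0.795 and 85.3 ± 2.58. Klk1b11 and Slfn1 belong to families of near-identical copies, and their counts are uncertain for that reason.

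**Figure D5:**
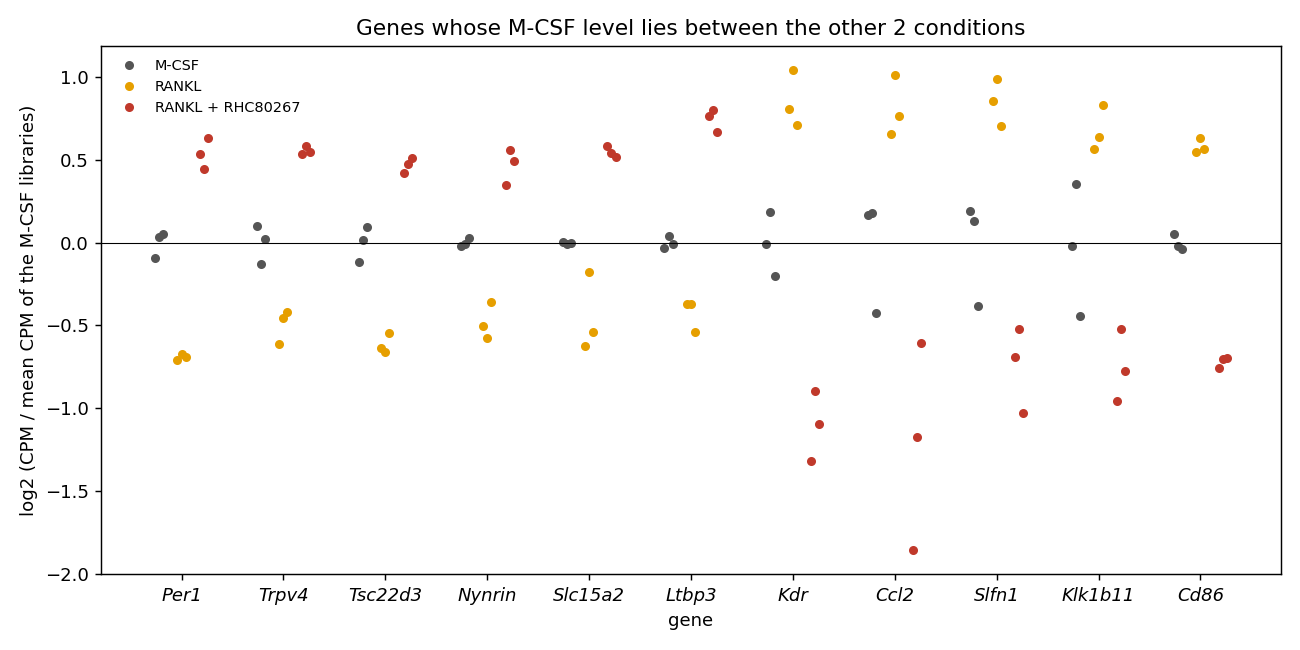
Level in each library relative to the mean of the M-CSF libraries (log2 ratio) for 11 genes whose M-CSF libraries lie between the RANKL-only and the RANKL plus RHC80267 libraries. The RHC80267 points lie above 0 for the first 6 genes and below 0 for the other 5, and the RANKL-only points lie on the opposite side because the genes were chosen for that order.

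Among the lowest 8 changes outside the lists was Hmga1b, a chromatin protein gene, at 6.51 ± 1.26 CPM with M-CSF, 8.40 ± 0.491 with RANKL alone and 0.146 ± 0.138 with RANKL plus RHC80267 (-5.42 ± 0.36, or -6.20 without RHC80267 replicate 2). It is a near-identical copy of Hmga1, so its counts are uncertain. Vim, vimentin of the cytoskeleton, was among the most abundant genes raised more than 2-fold, at 1249 ± 102 against 2583 ± 30.5 CPM.

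Macrophage markers were present in both groups. The 7 macrophage markers summed to 31078 to 31511 CPM per library with M-CSF and to 19801 to 20898 with RANKL plus RHC80267, and the 8 osteoclast markers to 94.1 to 112 and to 15962 to 18066. Markers of other cells were present at lower levels. The 14 neutrophil genes summed to 1324 to 1875 CPM with M-CSF and 859 to 1244 with RANKL plus RHC80267, and 11 of them fell, Elane, neutrophil elastase, by 1.70. In the same comparison 4 of 6 B cell markers tested fell, and the 12 megakaryocyte and erythroid genes summed to 317 to 332 against 119 to 121 CPM, of which Pf4, also made by macrophages, held most. T and NK cell markers other than Cd4 were under 1 CPM, and Ibsp had no counts. Whether these minor cells have a part in any change above was not tested. The rise of Col1a1 and Col1a2 (1.84 and 1.72) rests largely on RHC80267 replicate 1: without it they changed by 0.86 and 0.56. Col3a1 rose by 2.95, and still by 2.13 without that library.

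In the authors' deposited table of the same comparison, 3800 genes were higher and 3587 lower at a q-value below 0.05, of 16032 with a q-value.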

How the data were processed

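RNA was extracted with Trizol, and libraries were made with an Ultima dual-mode mRNA kit, per the labels' protocols. The submitters' processing notes name Bowtie2, RSEM 1.3.1 and DESeq2, with no order or role. The authors deposited 1 table with expected counts, TPM, and their own log2 fold changes and DESeq2 q-values per comparison. 24 other per-sample columns were not used. Expected counts (9.49% to 9.89% of values not whole) were rounded to whole numbers.

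Of 16570 genes, 4587 were removed by edgeR's filterByExpr on the 6 libraries. The remaining 11983 were tested in edgeR 4.0.16 (TMM, quasi-likelihood test, Benjamini-Hochberg, 4 residual degrees of freedom). CPM of all 12 libraries use the same scale. The comparison with RANKL alone used 12 libraries. Genes absent from a group got a bound from 3 counts over that group, and with 1 to 3 counts a ratio with its counting interval. The steps were tested on simulated data in which few genes changed, by 2-fold at most. That test does not cover shifts as wide and large as those found here. No 2 libraries agreed within sampling noise.

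The compared groups, gene lists and genes to name were chosen with earlier results of these data known. Genes were named by rule: fixed genes, the 8 highest and lowest changes, the 6 most abundant changed more than 2-fold, up to 4 per list by smallest p, and the 6 on each side whose M-CSF level lay between the RANKL conditions. A few genes that the rule names are not reported here. Of the genes named, 71 fall outside it and were chosen after their values were seen. Alternatives were DESeq2 1.42.0, limma-voom (limma 3.58.1), RLE size factors, other filters, 12 libraries, each library left out, and a replicate block.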

Additional observations from a re-analysis of the deposited data

How the results depend on the processing

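The counts over all genes kept to within 1.5 times in every setting tried: DESeq2 gave 3825 genes higher and 3729 lower, limma-voom 4290 and 4099, RLE size factors 4280 and 4160, no filter 4499 and 4155, at least 1 CPM in 3 libraries 4195 and 4025, and all 12 libraries 4377 and 4184. Leaving out 1 library at a time gave 4104 to 4282 higher and 3878 to 3927 lower, and more than 2-fold 1041 to 1091 higher and 673 to 738 lower. Deviations of same-numbered libraries correlated at -0.0658 to -0.0246, and those of other pairs at -0.101 to 0.130. With 3 libraries per group this cannot show whether replicate numbers pair the samples. The replicate block gave 4255 higher and 4060 lower, with 1024 and 695 more than 2-fold. Over all lists and settings, cell markers included, 22 list counts changed by more than 1.5 times or went to or from 0. Among them, the lower cytosolic ribosomal proteins ranged from 0 to 1 and the lower DNA replication genes from 1 to 2 on leaving out a library. No named gene changed direction with a call against M-CSF. Calls lost or gained are given beside Marco, Dagla, Fabp5, H2-Ab1, H2-Aa, Jun and Ndufs8, and their causes were not tested. Without M-CSF replicate 1 the 3 counts of Siglec15 in that group are gone, and without M-CSF replicate 2 or 3 the single counts of Ephx2 and Calcr, so their ratios rest on 1 library each. Against RANKL alone, DESeq2 and leaving out libraries were added after seeing the data. The differences for Ccl6, Tfeb, Daglb, Fabp7, Rela, Gclc, Pmaip1 and Tap2 lost their call in at least 1 of these, and those for Irf8, Zfp36, Cd36, Pcna, Plin2 and Ndufs8 gained one in at least 1. Depth limits the genes with few M-CSF counts.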

Other observations

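Genes of the BCL2 family, which holds survival and death-promoting members, were split, with 8 of 15 fallen and 4 risen (median -0.32). Bcl2l1, which encodes the survival protein BCL-XL, was at 84.1 ± 2.72 CPM with M-CSF, 63.1 ± 0.626 with RANKL alone and 22.9 ± 1.42 with RANKL plus RHC80267 (-1.88 ± 0.05, edgeR adjusted p = 6.83e-14). Bcl2 fell by 1.32 and the death-promoting Bid by 1.02, while the death-promoting Pmaip1 and Bmf rose by 1.23 and 0.60. Of 17 complement genes 10 fell and 4 rose (median -0.30). The receptors C3ar1 and C5ar1 fell by 1.18 and 1.01 and C1qb, a chain of C1q, by 0.78, while Cd59a, a membrane inhibitor of complement, rose by 1.48.

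Of 25 glycolysis genes 13 rose and 8 fell (median 0.16). Pdk1, a kinase that limits pyruvate entry into mitochondria, rose from 47.3 ± 1.51 to 152 ± 11.6 CPM and Aldoa, aldolase A, by 0.73, while the glucose transporter Slc2a3 fell by 0.91. Of 30 lysosome genes 17 fell and 8 rose (median -0.23). The proteases Ctsc and Lgmn fell by 1.10 and 0.96 and the mannosidase Man2b1 by 0.88.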
